A study of Mus musculus with 6 samples.

Results

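Neural adhesion molecules and synaptic organisers are the cell surface proteins by which neurons recognise each other, bundle their axons and set up synapses. They were represented here by 46 genes in 11 families, chosen by name: the leucine-rich repeat neuronal (LRRN), L1, NCAM, contactin and Caspr, DSCAM, neurexin and neuroligin, LRRTM, SLITRK, FLRT, IgLON, and SynCAM and ALCAM genes. A row of the array carried 45 of these symbols, among 21789 rows with 1 gene symbol, and where a symbol had several rows the one with the highest mean over the 6 arrays was used. No row was named Cadm2, which is not analysed here. The 46 genes, and the partner genes below, were chosen with earlier results of these data known. Counts set beside shares of all rows are therefore descriptions and not tests. The samples were 3 arrays of mouse N2A neuroblastoma cells transfected with a vector expressing a short hairpin RNA (shRNA) against Pou3f3, a class III POU transcription factor, and 3 arrays of N2A cells transfected with a non-targeting vector. Every culture received 1.5 µg of vector, grew in serum-containing medium without a differentiating agent, and was harvested 2.5 days later. The hairpin was driven by a U6 promoter, and no selection or sorting of the transiently transfected cells is described, so untransfected cells may be present in both groups. All replicates are cultures of 1 cell line, and the p-values below speak only of the spread between cultures of that line. All levels below are log2 array values, and all differences are knockdown minus control on the log2 scale.

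Cell adhesion molecules of the immunoglobulin superfamily, such as NCAM and L1, act between neighbouring membranes in neurite growth and axon bundling. Contactins and IgLON proteins are anchored to the outer leaflet of the membrane by lipid and work with transmembrane partners. Neurexins on the presynaptic side bind neuroligins and LRRTM proteins on the postsynaptic side, and SLITRK and FLRT proteins bind presynaptic receptor phosphatases and latrophilins, so that these families form a network of trans-synaptic bridges. N2A cells derive from a mouse neuroblastoma and are widely used as a model of immature neurons.

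On the arrays the targeted gene differed little between the groups. Pou3f3 had 8.20, 8.09 and 8.35 in knockdown replicates 1 to 3, against 8.37, 8.30 and 8.47 in control replicates 1 to 3. The groups overlapped, although all 3 same-numbered pairs ran lower, by 0.17, 0.21 and 0.12 (29% of all rows ran lower in all 3). Over rows of like level on the arrays the median difference was -0.08, and 69.9% of them lay below 0. The difference of -0.16 ± 0.08 (SE) had a limma adjusted p of 0.303. In a fit with a replicate block the limma adjusted p was 0.0880, under 0.1, but the fold stayed below the 1.3 required for a call. By quantitative RT-PCR the paper reported a larger fall of the Pou3f3 transcript with this knockdown than the array row shows. For that measurement it gives a later time after transfection than the 2.5 days of these cultures. Of 12 measured neuroblastoma and sympathoadrenal neuron markers, 9 had control means above 10, whereas all 20 markers of astrocytes, oligodendrocytes and Schwann cells, fibroblasts, endothelium, immune cells and muscle had control means between 4.96 and 8.98. Of the 12 neuroblastoma and sympathoadrenal markers none was called higher and 1 was called lower, Dbh, the enzyme that makes noradrenaline, which fell by 1.17 ± 0.12 (limma adjusted p = 0.00471), more than any adhesion or organiser gene. Gata3, a transcription factor of sympathetic neurons, differed by -0.33 ± 0.07 (limma adjusted p = 0.0484). Elavl4 of the same list differed the other way, by 0.29 ± 0.06 (limma adjusted p = 0.0634, or 0.0147 with the block). Both were below the fold required. Th differed by -0.38 ± 0.12 (limma adjusted p = 0.133) and was called lower with the block (limma adjusted p = 0.0420). The median of the 12 was -0.03. The part of such a change in the results below was not tested. Of the 20 markers of other cell types none was called lower and 1, the muscle gene Des, was called higher, and their median difference was -0.08.

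Adhesion and synaptic organiser genes lay lower in knockdown cells almost throughout, by small amounts. Of the 45 genes, 42 had a difference below 0 (57.5% of all rows with 1 gene symbol did, and 42.5% lay above 0), and the median was -0.13, against -0.03 over all rows. The share of all rows below 0 varied with their level on the arrays, as given below. The call used here, a limma adjusted p under 0.1 over all rows together with a fold of at least 1.3, was met by a single member, Lrrn4, which fell. No member was called higher, where 0.684% of all rows were called lower and 1.3% higher. A further 4 members, Ncam1, Dscaml1, Nlgn2 and Lsamp, had limma adjusted p-values under 0.1 and lay lower by less than 1.3-fold. With no minimum fold these made 5 of 45 lower, against 1.79% of all rows, and 0 higher, against 2.66% of all rows. At an unadjusted limma p under 0.05 the counts were 15 lower and 0 higher, against 10.2% and 9.66% of all rows. The count of 5 was 3 without knockdown replicate 1, 2 without knockdown replicate 3, and 1 without knockdown replicate 2, control replicate 2 or control replicate 3, and Lrrn4 was called in each of these fits. Without control replicate 1 the count was 4. With a variance filter it was 3 on rows with 1 gene symbol and 1 on all rows, listed or not. These filters kept 24 and 21 of the members. Without both arrays of replicate 1, 2 or 3 the count was 4, 1 and 0.

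**Figure D1:**
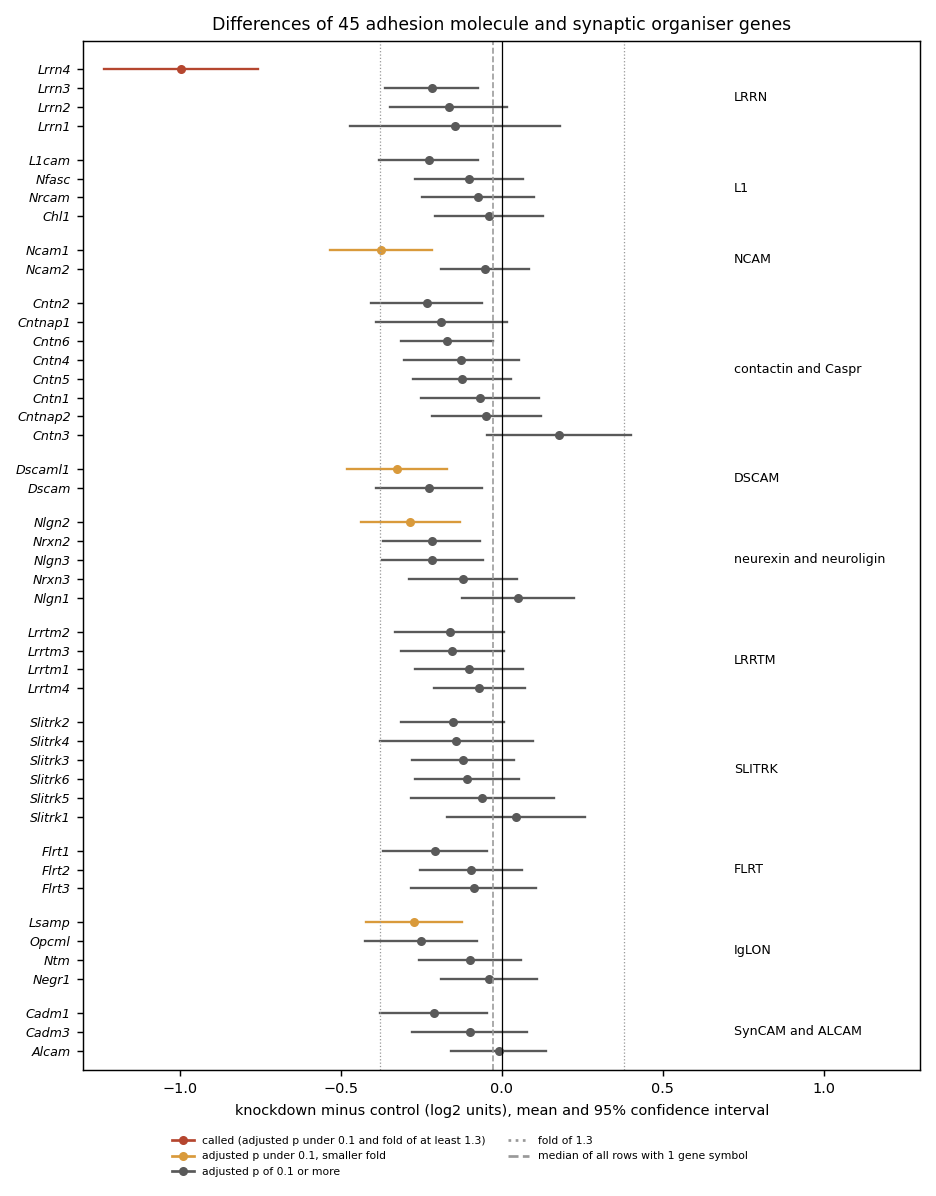
Difference between knockdown and control for each of the 45 genes (horizontal axis, log2 units; points are fitted differences and lines their 95% confidence intervals, 3 arrays per group), arranged by family down the page. Lrrn4 stands apart at -0.997, 4 genes have an adjusted p under 0.1 below the 1.3-fold line, and 42 of the 45 points lie left of 0.

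What the replicate numbers share is not stated, and the pairing was taken from the values themselves. All p-values given with the block rest on that choice. Arrays of the same replicate number deviated together, most clearly for number 1, so the comparison was also made with the replicate number as a block. In that fit 17 members were lower at a limma adjusted p under 0.1 with no minimum fold, against 10.7% of all rows, and 1 was higher, against 12.3% of all rows. The sole call at a fold of at least 1.3 was again Lrrn4, where 0.757% of all rows were lower and 1.74% higher. In same-numbered pairs of arrays, 41, 40 and 34 of the 45 members were lower in the knockdown array of pairs 1, 2 and 3, with median differences of -0.14, -0.19 and -0.10, where the medians over all rows were -0.01, -0.03 and -0.01. In 30 members all 3 pairs ran lower (29% of all rows did), and in 1 member, Cntn3, all 3 ran higher (23.8% of all rows did). For 22 members each knockdown value lay below each control value, and for none did the groups lie apart in the other direction. Over all rows the groups lay apart in the lower direction for 15.1% and in the higher direction for 10.9%. With 3 arrays per group an exact two-sided permutation test cannot give a p below 0.1, the value that all 22 reached.

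**Figure D2:**
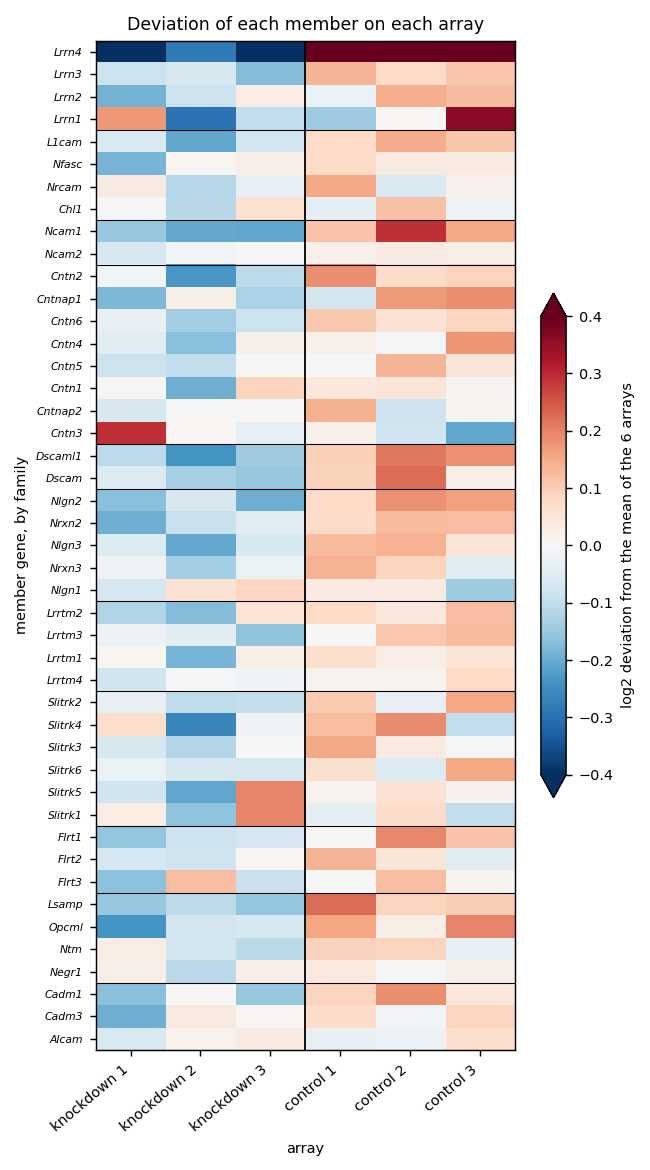
Deviation of each of the 45 genes from its own mean over the 6 arrays (colour scale in log2 units, capped at 0.4 in either direction), with the 3 knockdown arrays on the left and the 3 control arrays on the right. Between 8 and 14 members lay above their own mean on a knockdown array, against 36 or 37 on a control array.

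The members were also described by their level on the arrays, since low rows as a whole lay slightly below 0 in these arrays. Over all rows the median difference was -0.07 in the 5 lower of 10 level classes (mean log2 values up to 8.60) and 0.04 in the 5 upper ones. The share of all rows below 0 ran from 62.9% to 84.1% over the lower classes and from 34.8% to 48.4% over the upper ones. Of the members, 28 of 30 in the lower classes and 14 of 15 in the upper classes had a difference below 0. The 30 members of the lower classes had a median of -0.10, and 24 of them lay below the median of their own class. The 15 members of the upper classes had a median of -0.22, and 14 of them lay below the median of their own class. With the replicate block and no minimum fold, 13 of these 15 had a limma adjusted p under 0.1 and were lower, against 10.1% of the rows in the upper classes, and 1 was higher, against 21% of those rows. In the lower classes 4 of 30 members were lower in the same fit, against 11.2% of the rows there, a share near that background. The groups lay apart in the lower direction for 11 of these 30, against 19.5% of the rows in those classes. The groups lay apart in the lower direction for 11 of the 15 upper members, against 10.6% of the rows in those classes, and in the higher direction for none, against 17.9%. After cyclic loess normalisation, which evens out a trend along the level, the median of the 45 members was -0.08 with 38 below 0 and 7 at a limma adjusted p under 0.1, and the median of all rows was -0.000558. The boundary between the classes was placed after the values had been seen, and whether the members of the 2 sets of classes differ was not tested. Fewer cells carrying a transcript and less of it per cell cannot be told apart in such bulk RNA.

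**Figure D3:**
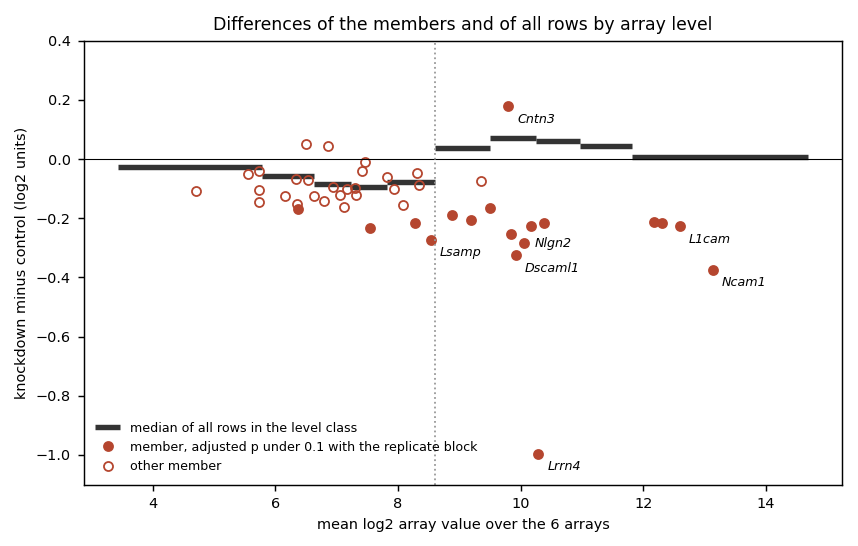
Difference between knockdown and control (vertical axis, log2 units) against the mean log2 array value over the 6 arrays (horizontal axis) for the 45 genes (circles, filled where the limma adjusted p with the replicate block is under 0.1), with the median over all rows in each of 10 level classes (bars). Right of the dotted line at 8.60 the class medians lie between 0.01 and 0.07, whereas 14 of the 15 genes lie below 0.

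Lrrn4 was the member with the largest difference. It encodes a leucine-rich repeat transmembrane protein of the LRRN family that has been tied to long-lasting memory in mice. Lrrn4 had 9.60, 10.00 and 9.76 in knockdown replicates 1 to 3, against 10.73, 10.91 and 10.72 in control replicates 1 to 3. The highest knockdown value lay well below the lowest control value. Lrrn4 fell by 0.997 ± 0.11 (SE, 95% confidence interval -1.24 to -0.76, limma adjusted p = 0.00676), which left 50.1% of the control level. The fall was 1.13, 0.91 and 0.95 in pairs 1, 2 and 3. It was called on leaving out any 1 array (limma adjusted p from 0.00876 to 0.0430), but not without both arrays of replicate 3 (limma adjusted p = 0.206, difference -1.02), where 2 arrays per group remained and 1 row in all was called.

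The other LRRN genes lay lower by much less. Lrrn3, a transmembrane protein of the same build that is widely present in developing neurons, had 12.22, 12.24 and 12.13 in knockdown replicates, against 12.44, 12.39 and 12.42 in control replicates. These values did not overlap, and the difference was -0.22 ± 0.06 (limma adjusted p = 0.126, or 0.0429 with the block). Lrrn2 differed by -0.16 ± 0.08 (limma adjusted p = 0.288, or 0.0933 with the block) with overlapping groups. Lrrn1 differed by -0.15 ± 0.14, ran higher in pair 1 and lower in the others, and had the widest interval of all members, -0.47 to 0.18.

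The promoters of 4 members are shown because they include the gene that fell and genes on either side of 0. These are the 250 bases before the start of Lrrn4, of 2 members with adjusted p-values under 0.1 (Nlgn2 and Lsamp) and of Cntn3, which lay higher in all 3 pairs. The sequences are from RefSeq, build GRCm38.p6, written 5′ to 3′ on the strand of the gene, with CpG dinucleotides, the sites of DNA methylation, in capitals. RefSeq entries were matched for 35 of the 45 members, and Ncam1 and Dscaml1 were not among them. The windows are chr2:132880863-132881112 (minus strand) for Lrrn4, chr11:69837785-69838034 (minus strand) for Nlgn2, chr16:39984114-39984363 (plus strand, the upstream one of 2 starts) for Lsamp and chr6:102464668-102464917 (minus strand) for Cntn3.
Lrrn4: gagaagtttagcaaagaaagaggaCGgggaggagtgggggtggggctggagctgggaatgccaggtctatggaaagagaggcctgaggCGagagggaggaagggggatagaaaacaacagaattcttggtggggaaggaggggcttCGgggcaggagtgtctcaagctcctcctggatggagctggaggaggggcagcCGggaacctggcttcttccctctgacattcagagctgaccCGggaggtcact
Nlgn2: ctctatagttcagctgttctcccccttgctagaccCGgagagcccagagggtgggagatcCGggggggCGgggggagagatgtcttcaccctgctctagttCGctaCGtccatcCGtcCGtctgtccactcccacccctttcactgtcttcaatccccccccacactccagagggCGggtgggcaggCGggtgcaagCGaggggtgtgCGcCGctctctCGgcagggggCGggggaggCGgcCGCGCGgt
Lsamp: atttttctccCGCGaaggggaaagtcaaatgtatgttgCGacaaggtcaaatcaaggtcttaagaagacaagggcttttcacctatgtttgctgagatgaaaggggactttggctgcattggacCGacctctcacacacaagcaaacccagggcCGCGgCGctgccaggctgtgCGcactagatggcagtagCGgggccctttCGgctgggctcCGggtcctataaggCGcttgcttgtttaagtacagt
Cntn3: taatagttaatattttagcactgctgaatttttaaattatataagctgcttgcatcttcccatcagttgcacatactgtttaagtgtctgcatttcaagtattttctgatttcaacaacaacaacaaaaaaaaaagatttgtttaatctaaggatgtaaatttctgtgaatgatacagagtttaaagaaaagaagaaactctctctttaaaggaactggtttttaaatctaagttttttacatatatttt
The Lrrn4 window held 5 CpG dinucleotides at 59.2% G and C, that of Nlgn2 held 18 at 67.6%, that of Lsamp 12 at 53.2% and that of Cntn3 0 at 26.4%. Over all 32851 promoters of the table the medians were 6 CpG dinucleotides and 52.4%. The octamer ATGCAAAT, the classical recognition sequence of POU proteins, was searched on both strands. It was in none of the 4 windows, was present in 1.6% of all promoters, and among 49 windows of the members occurred only in 1 of Nrxn3. A match or its absence in such a window is a description of letters and not of binding.

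All 6 genes of the NCAM and L1 families of immunoglobulin adhesion molecules had a difference below 0, where 57.5% of all rows did. Of these 6, only Ncam1 had a limma adjusted p under 0.1, where 1.79% of all rows did and were lower. Ncam1 encodes the neural cell adhesion molecule, which carries polysialic acid on growing neurites. Its values were 12.98, 12.93 and 12.92 in knockdown replicates, against 13.25, 13.42 and 13.28 in control replicates. The knockdown arrays lay within a narrow band below all control arrays, and the difference was -0.38 ± 0.07 (95% confidence interval -0.53 to -0.22, limma adjusted p = 0.0377, or 0.00767 with the block). This is a fold of 1.297, just short of the 1.3 required, and Ncam1 was called without knockdown replicate 1 (-0.39, limma adjusted p = 0.0668) or without control replicate 1 (-0.41, limma adjusted p = 0.0368). Without knockdown replicate 2, control replicate 2 or control replicate 3 its limma adjusted p was 0.142, 0.165 and 0.116. With a variance filter on all rows, listed or not, the limma adjusted p of Ncam1 was 0.309. Its relative Ncam2, known from olfactory axons, differed by -0.05 ± 0.06, although its groups did not overlap.

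L1cam, which guides neurites and is tethered to the cytoskeleton by ankyrins, had 12.54, 12.39 and 12.53 in knockdown replicates, against 12.68, 12.75 and 12.71 in control replicates. The groups lay apart, with a difference of -0.23 ± 0.07 (limma adjusted p = 0.131, or 0.0465 with the block). The other L1 genes differed less. Nfasc, a component of the axon initial segment and node of Ranvier, differed by -0.10 ± 0.07 without overlap, and Nrcam, a further ankyrin-bound molecule, by -0.08 ± 0.08 with overlap. Chl1, the close homologue of L1, differed by -0.04 ± 0.07, and its sign turned on leaving out knockdown replicate 2 or control replicate 2.

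The DSCAM genes, which act in self-avoidance of neurites in the mouse retina, both lay lower. Dscaml1 had 9.82, 9.68 and 9.78 in knockdown replicates, against 10.02, 10.13 and 10.11 in control replicates. The lowest control value exceeded the highest knockdown value, and the difference was -0.33 ± 0.07 (limma adjusted p = 0.0540, or 0.0146 with the block). Dscam had 10.11, 10.03 and 10.01 in knockdown replicates and 10.26, 10.39 and 10.19 in control replicates. Its groups lay apart too, by a smaller gap, with a difference of -0.23 ± 0.07 (limma adjusted p = 0.147, or 0.0461 with the block).

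Of 8 contactin and Caspr genes, 7 had a difference below 0 (57.5% of all rows did) and none was called. Cntn1, Cntn2, Cntn4, Cntn5, Cntn6 and Cntnap2 lay in the lower level classes, where 62.9% to 84.1% of all rows lay below 0. In those classes the groups lay apart in the lower direction for 19.5% of the rows. Control means of these genes were within the range of the markers of other cell types (4.96 to 8.98), and no detection call was made. Cntn2 encodes TAG-1, an axonal glycoprotein that binds Caspr2. Its values were 7.53, 7.31 and 7.44 in knockdown replicates, against 7.73, 7.62 and 7.63 in control replicates. They did not overlap, and the difference was -0.23 ± 0.08 (limma adjusted p = 0.152, or 0.0333 with the block). The groups also lay apart for Cntn5 and Cntn6, with differences of -0.12 ± 0.07 and -0.17 ± 0.06 (limma adjusted p = 0.205 and 0.0783 with the block). Cntnap1, which encodes Caspr, the paranodal partner of contactin-1, differed by -0.19 ± 0.09 (limma adjusted p = 0.280, or 0.0790 with the block), with groups that overlapped. Cntn1, Cntn4 and Cntnap2 (Caspr2) differed by -0.07, -0.13 and -0.05, all with overlapping groups.

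Cntn3 was the exception of the family, and its values were singled out after they had been seen. Cntn3, a contactin of the brain, had 10.09, 9.81 and 9.77 in knockdown replicates, against 9.82, 9.72 and 9.59 in control replicates. Control replicate 1 lay above 2 of the knockdown arrays, so the groups overlapped, yet each knockdown array lay above the control array of its own number, by 0.27, 0.09 and 0.18. The difference of 0.18 ± 0.10 had a limma adjusted p of 0.341, and of 0.0835 with the block, and was the highest of the 45 members.

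**Figure D4:**
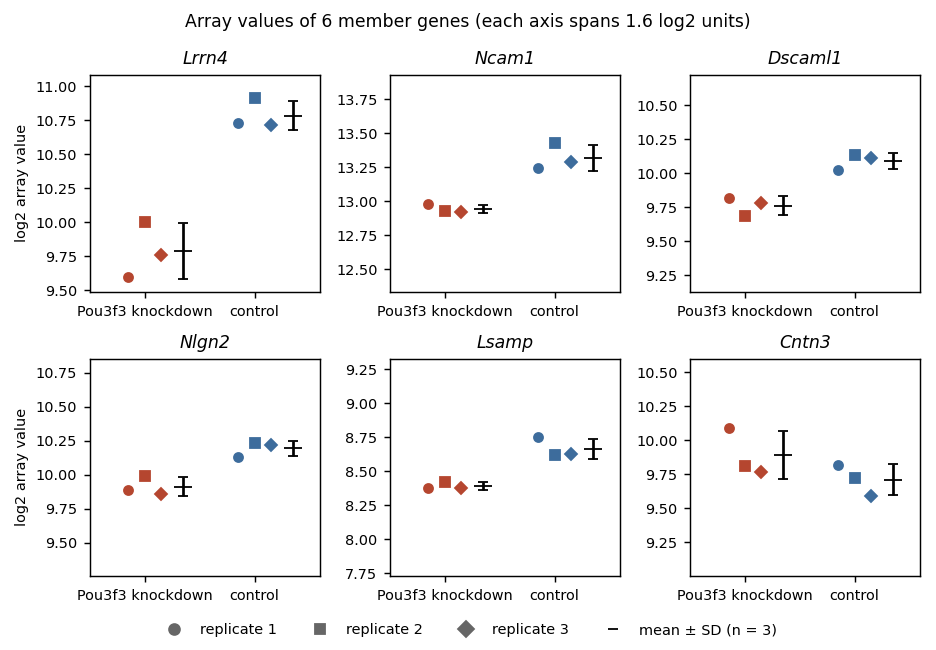
Per-array log2 levels (vertical axes, all of 1 length in log2 units) of Lrrn4, Ncam1, Dscaml1, Nlgn2, Lsamp and Cntn3 in knockdown cells (left) and control cells (right); symbols mark the replicate number, and horizontal bars with whiskers give mean ± SD of 3 arrays. The groups lie apart for the first 5 genes and overlap for Cntn3, where each knockdown array lies above the control array of its number.

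Among the synaptic organisers, Nrxn2 of the presynaptic side and its postsynaptic partners Nlgn2 and Nlgn3 lay lower. Nlgn2, the neuroligin of inhibitory synapses, had 9.89, 9.99 and 9.86 in knockdown replicates, against 10.13, 10.24 and 10.22 in control replicates. The groups were clearly separated, with a difference of -0.28 ± 0.07 (95% confidence interval -0.44 to -0.13, limma adjusted p = 0.0763, or 0.0167 with the block). Nlgn3, which occurs at excitatory and inhibitory synapses, had 8.23, 8.08 and 8.22 in knockdown replicates and 8.41, 8.42 and 8.34 in control replicates. These groups lay apart as well, and the difference was -0.22 ± 0.07 (limma adjusted p = 0.147, or 0.0544 with the block). Nrxn2, a presynaptic neurexin, had 10.19, 10.29 and 10.34 in knockdown replicates, against 10.46, 10.51 and 10.51 in control replicates. It differed by -0.22 ± 0.07 without overlap (limma adjusted p = 0.137, or 0.0399 with the block). Nrxn3 differed by -0.12 ± 0.07 and Nlgn1, the neuroligin of excitatory synapses, by 0.05 ± 0.08, both with overlapping groups (limma adjusted p = 0.382 and 0.737). Whether Nlgn1 and Nlgn2 differ from each other was not tested.

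The LRRTM and SLITRK genes, whose products organise synapses from the postsynaptic side, differed little. All 4 LRRTM genes lay below 0, from -0.16 to -0.07, and the groups did not overlap for 3 of them. Every gene of both families lay in the lower level classes, where 62.9% to 84.1% of all rows lay below 0. In those classes the groups lay apart in the lower direction for 19.5% of the rows. Lrrtm3 had the lowest unadjusted p of the family, with 8.05, 8.03 and 7.91 in knockdown replicates, against 8.07, 8.18 and 8.20 in control replicates. Knockdown replicate 1 almost reached control replicate 1, and the difference was -0.15 ± 0.07 (limma adjusted p = 0.266, or 0.148 with the block). The neurexin ligands Lrrtm2 and Lrrtm1 differed by -0.16 and -0.10, and Lrrtm4, which binds heparan sulphate proteoglycans, by -0.07. Of the 6 SLITRK genes 5 lay below 0, from -0.15 to -0.06, and Slitrk1 differed by 0.04. Slitrk2, with the lowest unadjusted p of these, had 6.31, 6.24 and 6.25 in knockdown replicates and 6.45, 6.31 and 6.50 in control replicates. The groups barely touched without overlapping, and the difference was -0.15 ± 0.07 (limma adjusted p = 0.269). A lower row of Slitrk2 differed by 0.04 ± 0.06, so the rows of this gene did not run the same way. Slitrk4, Slitrk3, Slitrk6 and Slitrk5 differed by -0.14, -0.12, -0.11 and -0.06, with overlapping groups and limma adjusted p-values from 0.356 to 0.751.

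The FLRT genes encode ligands of latrophilins and of the netrin receptors of the UNC5 family. Flrt1 had 9.03, 9.11 and 9.12 in knockdown replicates, against 9.19, 9.38 and 9.31 in control replicates. The groups lay apart, with a difference of -0.21 ± 0.07 (limma adjusted p = 0.169, or 0.0479 with the block). Flrt2 and Flrt3 differed by -0.10 and -0.09, and their groups overlapped.

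IgLON proteins are lipid-anchored molecules that modulate neurite growth and synapse number. Lsamp, the limbic system-associated member, had 8.38, 8.42 and 8.38 in knockdown replicates, against 8.75, 8.62 and 8.63 in control replicates. The knockdown arrays were nearly equal and all below the controls, with a difference of -0.27 ± 0.07 (95% confidence interval -0.42 to -0.12, limma adjusted p = 0.0780, or 0.0219 with the block). Opcml, which encodes the opioid-binding cell adhesion molecule, had 9.60, 9.77 and 9.78 in knockdown replicates, against 10.00, 9.87 and 10.04 in control replicates. Its groups lay apart by a small gap, and the difference was -0.25 ± 0.08 (limma adjusted p = 0.137, or 0.0420 with the block). Ntm (neurotrimin) and Negr1 differed by -0.10 and -0.04 with overlapping groups.

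Of the SynCAM genes, whose products bind across the synapse, Cadm1 had 12.00, 12.17 and 12.02 in knockdown replicates, against 12.26, 12.35 and 12.21 in control replicates. The highest knockdown value lay just under the lowest control value, with a difference of -0.21 ± 0.07 (limma adjusted p = 0.171, or 0.0414 with the block). Cadm3 differed by -0.10 ± 0.08. Alcam, a molecule of axon bundling that also occurs outside the nervous system, differed by -0.01 ± 0.07 (95% confidence interval -0.16 to 0.14), the smallest difference of all members.

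To set these genes beside the proteins they work with, 96 further genes were read from the same fit. Of 56 extracellular partners, 50 had a difference below 0 (57.5% of all rows did), 2 were called lower (0.684% of all rows were) and none higher, with a median of -0.12. These shares are over rows of all levels. Neither these partners nor the scaffold genes below were compared with rows of like level. Elfn1, a postsynaptic protein that recruits a presynaptic glutamate receptor, had 8.10, 8.15 and 8.11 in knockdown replicates, against 8.66, 8.83 and 8.59 in control replicates. These groups were widely separated, and Elfn1 fell by 0.58 ± 0.08 (limma adjusted p = 0.0156) and was called on leaving out any 1 array (limma adjusted p from 0.0206 to 0.0684), but not without both arrays of replicate 2 or of replicate 3 (limma adjusted p = 0.220 and 0.207). Igsf21, a neurexin-binding protein of inhibitory synapses, fell by 0.43 ± 0.10 (limma adjusted p = 0.0707), with 7.94, 7.89 and 8.17 in knockdown replicates and 8.35, 8.61 and 8.34 in control replicates. Igsf21 was not called without knockdown replicate 1 or 2 or control replicate 2 or 3 (limma adjusted p = 0.130, 0.238, 0.234 and 0.140). C1ql1, a secreted synaptic ligand, was called with the block (-0.41, limma adjusted p = 0.00444) and had a limma adjusted p of 0.121 without it.

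Of 36 cytoplasmic scaffold genes, 23 lay below 0 (57.5% of all rows did, a share near that of this list) with a median of -0.06, and none was called in either direction. The groups lay apart in the lower direction for 11 of the 36 and in the higher direction for 2 (15.1% and 10.9% of all rows). Ank3, which encodes ankyrin-G, the anchor of L1-type molecules at the axon initial segment, differed by -0.29 ± 0.08 (limma adjusted p = 0.0983), and Dlg3, a postsynaptic density scaffold, by 0.28 ± 0.07 (limma adjusted p = 0.0993). Both were below the fold required. Dlg4 (PSD-95) and Cask, scaffolds that bind neuroligins and neurexins, differed by -0.0047 and -0.06. Among 4 protease genes whose products cut adhesion molecules from the membrane, 1 was called lower, where 0.684% of all rows were. This was Bace1, the beta-secretase that processes Chl1 and other L1-type proteins. Its values were 9.98, 10.23 and 10.09 in knockdown replicates, against 10.38, 10.65 and 10.50 in control replicates. The groups lay apart, and Bace1 fell by 0.41 ± 0.09 (limma adjusted p = 0.0654, or 0.00338 with the block). Bace2 differed by -0.22 ± 0.08 without overlap (limma adjusted p = 0.168, or 0.0359 with the block), and Adam17 by -0.07 ± 0.07. Adam10, a protease of several of these molecules, differed by 0.20 ± 0.09 (limma adjusted p = 0.266, or 0.0518 with the block). Without any 1 array other than control replicate 1, the limma adjusted p of Bace1 lay between 0.121 and 0.233, with differences from -0.48 to -0.34.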

How the data were processed

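Total RNA of N2A cells was labelled and hybridised to Affymetrix Mouse Gene ST arrays, 3 per group. The authors RMA background corrected and quantile normalised the arrays and summarised probes per gene, and deposited log2 values, which ran from 3.16 to 14.9. Quantile normalisation hides a shift shared by most transcripts. The submitters' notes name RMA and limma; versions and genome build are not given in the sources used here. No detection call was made, and precision is limited by the number of arrays.

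The platform annotation gave 1 symbol for 21789 of 35556 rows, several for 1621 and none for 12146. The 21789 rows were fitted with lmFit and eBayes (limma 3.58.1, R 4.3.3), knockdown against control, with Benjamini-Hochberg adjustment over all of them. The fit without the block was tested on simulated arrays that had no replicate effect and no trend along the level. The fit with the block was not tested in this way. Calls needed both an adjusted p below 0.1 and a 1.3-fold difference, the thresholds of the study. A variance filter modelled on its own was an alternative and not the main setting, since filtering on the variance over both groups distorts the prior of eBayes. Level classes are 10 equal groups of rows by mean value. Promoters are RefSeq sequences of GRCm38.p6.

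Replicate numbers were taken to pair the arrays from the correlation of deviations from the group means. The correlations were 0.64, 0.31 and 0.29 for same-numbered arrays and between -0.48 and 0.25 for others, with numbers 2 and 3 also correlated (0.25 and 0.22). Deviations from a mean of 3 arrays sum to 0, which pulls the correlations of other numbers down where 1 number matches. What the numbers share is not stated. Alternatives were the replicate block, variance filters, a level filter, another prior, 2 further normalisations, other thresholds, another row per symbol and leaving out arrays; leaving out both arrays of a number, and the block with no minimum fold, were chosen after seeing the data.

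Array values are given for members called in either fit and otherwise for the member of each family with the lowest unadjusted p, with called partners up to 4 per list. Array values of Lrrn3, Dscam, Nlgn3, Nrxn2, Opcml and Cntn3, and the partners that were not called, were added after their values were seen. The members and lists were chosen with earlier results of these data known.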

Additional observations from a re-analysis of the deposited data

How the results depend on the processing

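Lrrn4 was called under every other normalisation, filter, prior, block and threshold tried and under every setting that left out 1 array, and it was lost only without replicate 3 of both groups, where 2 arrays per group remained. With a replicate block the members called were again 1 lower (Lrrn4) and 0 higher, and all rows called were 165 lower and 379 higher; with this block and no minimum fold 17 members were lower and 1 higher, 2329 and 2676 of all rows, 30 and 5 partner genes, and Pou3f3, at -0.16, passed (limma adjusted p = 0.0880). The block changed no other call of a member. With no minimum fold and no block, 5 members, 390 and 579 of all rows (lower and higher), and 9 and 1 partner genes were called. A threshold of 0.05 left 173 rows higher and 1 partner gene lower. A variance filter modelled on the study's kept rows above the median variance of all rows, listed or not. It left 10 rows lower, 2 higher and 0 partner genes. The paper reported far more changed genes at the same thresholds, and its list was not reproduced here. Rows above the median level left 1 partner gene lower, and cyclic loess gave 6. The cause of these shifts was not tested. On leaving out 1 array or a pair of arrays, members called lower ran from 0 to 3, all rows called lower from 1 to 219 and higher from 0 to 392, partner genes lower from 0 to 5 and higher from 0 to 1.

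The median of the members ran from -0.16 to -0.12 on leaving out arrays and was -0.08 after cyclic loess. Members near 0 changed sign. After cyclic loess Chl1 was at 0.0105, Slitrk5 at 0.00586, Negr1 at 0.0384 and Alcam at 0.0663. With the other row of the gene in place of the higher one, and no change of normalisation, Slitrk2 was at 0.0445. On leaving out arrays Lrrn1 ran from -0.377 to 0.00936, Chl1 from -0.100 to 0.0538, Cntn1 from -0.141 to 0.0208, Cntnap2 from -0.115 to 0.0324, Nlgn1 from -0.0396 to 0.124, Slitrk1 from -0.0812 to 0.183, Slitrk4 from -0.253 to 0.0144, Slitrk5 from -0.181 to 0.0424, Negr1 from -0.0612 to 0.00479 and Alcam from -0.0341 to 0.0211. None of these was called in any setting.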

Other observations

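Further partner genes with limma adjusted p-values under 0.1 lay below the fold required. The teneurin genes Tenm4 and Tenm3, whose products bind latrophilins across the synapse, differed by -0.35 ± 0.07 and -0.29 ± 0.07 (SE, limma adjusted p = 0.0439 and 0.0708), and Adgrl1, which encodes latrophilin 1, by -0.27 ± 0.06 (limma adjusted p = 0.0627). Elfn2, the relative of Elfn1, differed by -0.34 ± 0.08 (limma adjusted p = 0.0755), and Nptx1, a secreted pentraxin that clusters glutamate receptors, by -0.27 ± 0.06 (limma adjusted p = 0.0711). Tenm4 had 9.55, 9.55 and 9.51 in knockdown replicates, against 9.88, 9.97 and 9.80 in control replicates. For all 5 genes the groups lay apart, as they did in the lower direction for 26 of the 56 extracellular partners and in the higher direction for 2 of them (15.1% and 10.9% of all rows). These genes were picked by their adjusted p after the values had been seen.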
